A study of Mus musculus with 42 samples.

Results

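The genes described here are 10 markers of the yolk sac visceral endoderm, *Afp*, *Ttr*, *Apoa1*, *Apoa4*, *Apob*, *Apom*, *Rbp4*, *Amn*, *Cubn* and *Trf*. They were listed by name as a report on tissue carried over in dissection, and they are 10 of the 56953 genes counted. The libraries come from the heart field, the tissue that supplies cells to the growing heart tube, of mouse embryos staged as E8.5i. Each embryo gave a left and a right library, and its looping direction was recorded. Of the 21 embryos, 5 were wild type (Ccdc40+/+) with rightward looping, 11 were homozygous mutants (Ccdc40lnks/lnks) with rightward looping (rightward mutants) and 5 were homozygous mutants with inverted looping (inverted mutants), which makes 42 libraries. The labels name neither a strain nor a treatment. The background of the mutant line is written as C56Bl6J in the study's methods. The *lnks* allele carries a nonsense mutation made with N-ethyl-N-nitrosourea, and *Ccdc40* encodes a part of the axonemal ruler that motile cilia need to beat. The wild types were 4 males and 1 female, the rightward mutants 6 males and 5 females, and the inverted mutants 3 males and 2 females. The sample was meant to hold neither the heart tube nor neighbouring parts of the body, and the yolk sac was not a tissue the dissection set out to keep. The study further sorted the embryos by their expression into situs solitus, heterotaxy and situs inversus totalis, a split that no label gives per embryo. The rightward mutants here pool the situs solitus and heterotaxy mutants, and the inverted mutants are those of situs inversus totalis.

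The visceral endoderm is the epithelium that covers the yolk sac on the outside. It takes up maternal nutrients through apical receptors, and it secretes carrier proteins and lipoproteins to the embryo in the way the liver does later. Transcription factors of the FOXA, HNF1 and HNF4 families, shared with the liver, drive many of its genes. Of the genes studied, *Afp* (alpha-fetoprotein), *Ttr* (transthyretin), *Rbp4* (retinol-binding protein) and *Trf* (transferrin) encode secreted carriers, *Apoa1*, *Apoa4*, *Apob* and *Apom* encode apolipoproteins, and *Cubn* and *Amn* encode cubilin and amnionless, the subunits of an uptake receptor. In a bulk sample of this kind, fewer cells of a type and less RNA per cell cannot be told apart.

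Stretches before the start of 3 of these genes are shown, those that held the letters tgtttgc. Any part of such letters in the differences between sides was not tested. The letters tgtttgc, a core that FOXA proteins bind, were searched on both strands in 250 bases before each start, and capitals mark the matches. The sequences are those of RefSeq on GRCm38.p6, from the gene's own strand (plus for all 3), for *Afp* at chr5:90490464-90490713, for *Apoa1* at chr9:46228380-46228629 and for *Apob* at chr12:7977427-7977676.
Afp: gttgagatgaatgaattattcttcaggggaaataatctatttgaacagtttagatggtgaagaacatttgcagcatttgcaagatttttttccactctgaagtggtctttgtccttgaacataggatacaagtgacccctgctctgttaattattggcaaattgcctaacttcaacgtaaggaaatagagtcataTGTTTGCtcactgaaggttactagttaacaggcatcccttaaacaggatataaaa
Apoa1: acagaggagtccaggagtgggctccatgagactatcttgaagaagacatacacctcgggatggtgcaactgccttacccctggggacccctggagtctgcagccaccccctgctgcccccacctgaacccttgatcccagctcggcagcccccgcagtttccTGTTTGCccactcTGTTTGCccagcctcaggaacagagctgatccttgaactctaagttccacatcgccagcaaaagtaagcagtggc
Apob: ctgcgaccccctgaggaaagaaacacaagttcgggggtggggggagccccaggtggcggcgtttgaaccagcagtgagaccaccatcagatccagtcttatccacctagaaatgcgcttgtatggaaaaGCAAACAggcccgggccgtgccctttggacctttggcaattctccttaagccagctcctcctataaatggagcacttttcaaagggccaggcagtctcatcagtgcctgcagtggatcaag

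The match in *Afp* began 55 bases before the start. *Apoa1* held a pair of matches, which began 88 and 75 bases before the start. In *Apob* the match lay on the opposite strand and its first printed base was 121 bases before the start. Of the 10 genes, 8 had an entry in the RefSeq table, and these letters were found in 3 of them, against 4.3% of all 32851 windows of the same length. *Rbp4* alone of the 8 held TGTTTAC (3.17% of all windows), and *Afp* alone held GTTAAT (6.43%) and GTTAAC (2.56%), letters that resemble parts of an HNF1 site. *Apoa4* alone held CAAAGTTCA (0.335%), which resembles an HNF4 site, and CAAAGTCCA (0.384%), AGATAA (9.99%) and TGATAA (7.94%) were found in none of the 8. A match is a run of letters and not a site shown to be used.

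On GRCm39, *Afp* lies on chromosome 5 at 90638584 to 90656766, *Apoa1* on chromosome 9 at 46139878 to 46142212 and *Apoa4* close by at 46151994 to 46154757, and *Apob* on chromosome 12 at 8027648 to 8066835. *Trf* lies on chromosome 9 at 103081200 to 103107814, *Apom* on chromosome 17 at 35347973 to 35351026, *Rbp4* on chromosome 19 at 38105066 to 38113754, *Amn* on chromosome 12 at 111237524 to 111244001 and *Cubn* on chromosome 2 at 13281149 to 13496624. *Ttr* lies on chromosome 18. The counts cover the exons of these protein-coding genes. The sources do not state whether strand was used in counting. The spans of annotated genes on the other strand overlap those of *Afp*, *Ttr*, *Apoa4*, *Apob*, *Rbp4* and *Cubn*. Whether the exons overlap was not examined, and reads from any shared exon might not be told apart.

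Levels are given as CPM, in which counts are divided by the size of the library. Libraries held 36073684 to 62970327 counts. *Ccdc40* ranged from 15.4 to 26.3 CPM in the 10 wild-type libraries and from 8.88 to 14.6 CPM in the 32 mutant libraries, so that the groups did not overlap. Of the heart field markers, *Wnt2* had a median of 185 CPM, *Tbx5* of 65.8 CPM and *Isl1*, which the foregut also expresses, of 90.8 CPM (range 52.3 to 140). The right side of embryo 2_2 was the exception, with *Wnt2* at 2.99 CPM and *Tbx5* at 0.35 CPM, where the next lowest libraries had 27.7 and 5.78 CPM. Some libraries stood apart for the genes studied. Both sides of the rightward mutant 2_2 had low values, and so did the left side of the inverted mutant 10_3. The right side of the wild type 10_1 had the next lowest sum of the 10 genes, 82.5 CPM. It also held the lowest sums of foregut genes (825 CPM) and of hepatic endoderm genes (78.9 CPM) and the highest sums of neural tube genes (127 CPM, median 17.2) and somite genes (315 CPM, median 136) of the 42 libraries. The right side of 2_2 also held the lowest sum of 9 heart tube muscle genes of any library, 268 CPM against a median of 2490 CPM.

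All 10 genes were detected, and their levels spread over a wide range. Their summed level had a median of 629 CPM and ran from 29.0 CPM in the right side of 2_2 to 1650 CPM in the right side of 18_2, a 56.9-fold range. As a share of all counts this was 0.00301% to 0.162%. Per kilobase of exon, *Rbp4* had the highest median level, 138 CPM per kb, followed by *Ttr* at 52.3, *Apoa1* at 49.3 and *Apom* at 43.7 CPM per kb. *Afp* had 9.13, *Trf* 7.37, *Amn* 5.62, *Apob* 2.96, *Apoa4* 2.2 and *Cubn* 1.46 CPM per kb. The ranges of all neighbours in this order overlapped. *Apom* was above *Afp* in 42 of 42 libraries, *Amn* above *Apob* in 40 and *Rbp4* above *Ttr* in 39, but *Ttr* was above *Apoa1* in only 23 of 42, so that these 2 could not be ordered. *Trf* and *Amn* kept their order in 31 libraries, *Afp* and *Trf* in 32 and *Apob* and *Apoa4* in 30.

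The range over libraries differed between genes. In CPM, *Ttr* ran from 1.16 to 248, *Apoa1* from 1.61 to 287, *Afp* from 0.59 to 93.4 and *Cubn* from 0.612 to 88.3, which are ranges of 214-fold, 179-fold, 158-fold and 144-fold. *Apob* covered 115-fold, *Rbp4* 86.9-fold, *Apom* 78.8-fold and *Amn* 65.4-fold. *Trf* covered 8.77-fold only, from 13.3 to 116 CPM. Embryo 2_2 set several of these ranges. Over the 40 libraries without it *Apoa1* covered 179-fold and *Cubn* 126-fold, but *Afp* 34.5-fold, *Rbp4* 36.6-fold and *Ttr* 20.8-fold, and *Apob* 63.4-fold, *Apom* 55.1-fold, *Amn* 65.4-fold and *Trf* 8.31-fold. *Apoa4*, the gene with the lowest CPM, had a count of 0 in the right side of 2_2 and in the left side of 10_3, which allows up to 0.0655 and 0.066 CPM, and reached 16.8 CPM in the right side of 32_3. Such limits cover counting error only.

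**Figure D1:**
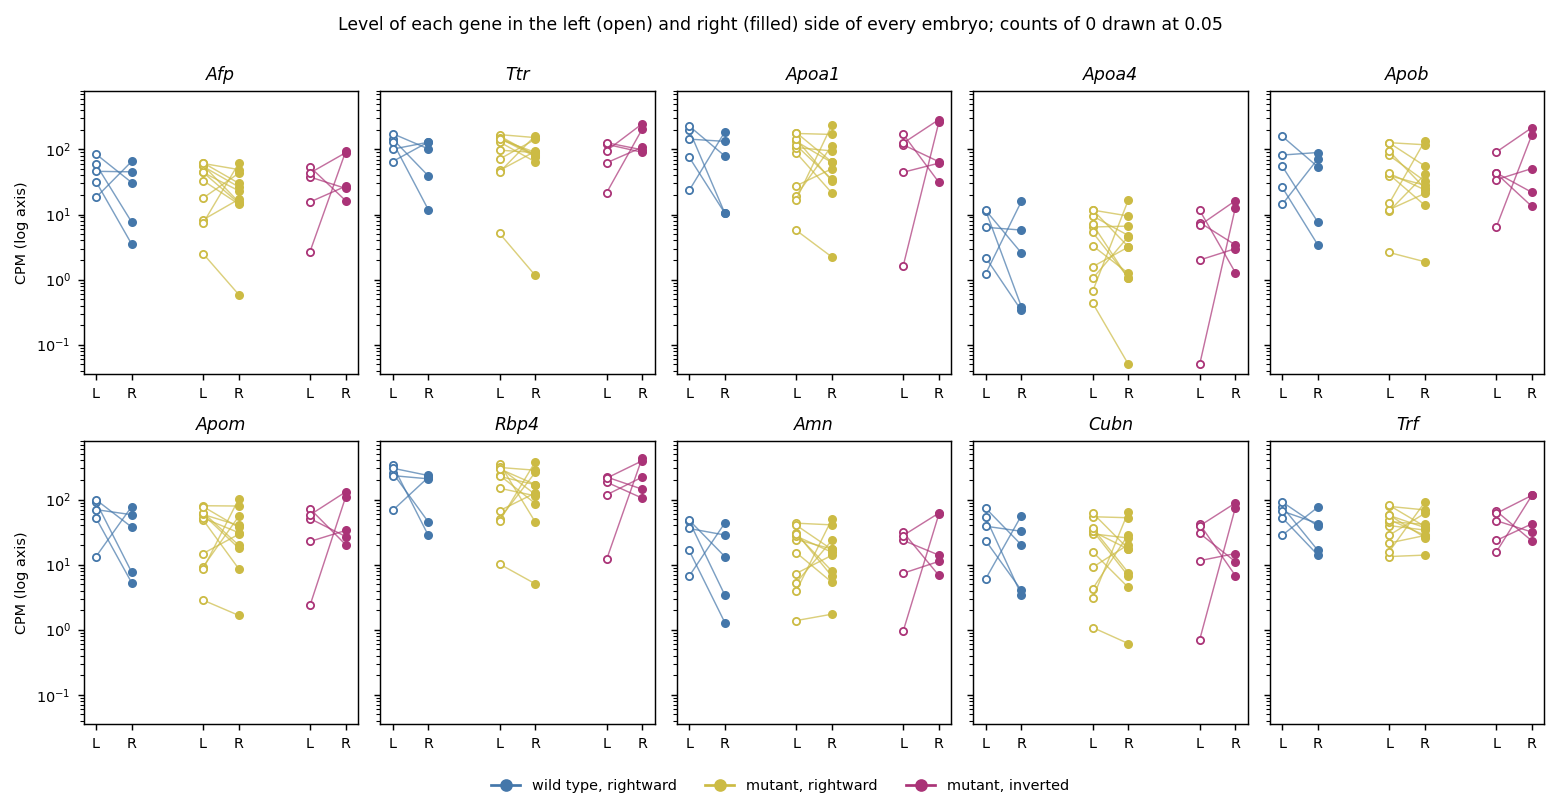
Level of each gene in CPM on a log axis, with the left side (L, open) and the right side (R, filled) of each embryo joined by a line, for 5 wild types (blue), 11 rightward mutants (yellow) and 5 inverted mutants (purple). Lines cross in all groups, and the low yellow pair in most panels is embryo 2_2. Counts of 0 (*Apoa4*) are drawn at 0.05.

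Among the secreted carriers, *Rbp4*, which carries retinol, was followed in every embryo. In the wild types its left and right levels were 258 and 45.4 CPM in 7_1, 67.9 and 219 CPM in 8_1, 339 and 28.2 CPM in 10_1, 303 and 234 CPM in 17_7 and 233 and 208 CPM in 22_4. The left side was higher in 4 wild types and lower in 8_1. Among the rightward mutants, the left level was 10.2 CPM at the lowest, 226 CPM at the median and 355 CPM at the highest, and the right level 5.07, 126 and 380 CPM. Among the inverted mutants the left and right levels were 185 and 105 CPM in 2_7, 222 and 144 CPM in 4_6, 12 and 440 CPM in 10_3, 213 and 394 CPM in 18_2 and 118 and 221 CPM in 32_2. The right side was higher in 3 of these embryos and the left side in the other 2, and the ranges of all groups and sides overlapped.

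*Ttr*, a carrier of thyroid hormone that also binds RBP4, was similar. Its left level was 65.1 to 175 CPM (median 131) and its right level 11.9 to 130 CPM (median 102) in the wild types. Among the rightward mutants the left level was 5.12 to 169 CPM (median 130) and the right level 1.16 to 163 CPM (median 89.6). Among the inverted mutants the left level was 21.6 to 127 CPM (median 95.5) and the right level 90.3 to 248 CPM (median 108). The wild-type ranges of both sides overlapped, as did those of both mutant groups.

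*Afp*, a fetal counterpart of albumin, had left and right levels of 58.8 and 7.63 CPM in 7_1, 18.3 and 65.5 CPM in 8_1, 32.0 and 3.5 CPM in 10_1, 84.7 and 31.0 CPM in 17_7 and 46.1 and 45.3 CPM in 22_4. Among the rightward mutants the left level was 2.51 to 62.4 CPM (median 44.4) and the right level 0.59 to 61.2 CPM (median 23.2). Among the inverted mutants the left level was 2.7 to 53.7 CPM (median 37.7) and the right level 16.3 to 93.4 CPM (median 27.2). Again 8_1 was the only wild type with more on the right.

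*Trf*, the carrier of iron, differed least between libraries. Its left level was 28.3 to 91.6 CPM (median 66.4) and its right level 14.0 to 76.4 CPM (median 39.0) in the wild types. Rightward mutants had a left level of 13.3 to 81.3 CPM (median 45.7) and a right level of 14.0 to 91.6 CPM (median 37.0). Inverted mutants had a left level of 15.6 to 66.6 CPM (median 47.4) and a right level of 23.1 to 116 CPM (median 42.3). Embryo 2_2 held its lowest value, 13.3 CPM on the left, with 14.0 CPM on the right.

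Of the apolipoproteins, *Apoa1* encodes the main protein of high-density lipoprotein. In the wild types its left and right levels were 199 and 10.5 CPM in 7_1, 23.4 and 186 CPM in 8_1, 76.2 and 10.5 CPM in 10_1, 229 and 79.3 CPM in 17_7 and 144 and 133 CPM in 22_4. In the rightward mutants the left level was 5.73 to 182 CPM (median 107) and the right level 2.23 to 237 CPM (median 63). Among the inverted mutants the left and right levels were 118 and 64.8 CPM in 2_7, 172 and 31.3 CPM in 4_6, 1.61 and 261 CPM in 10_3, 125 and 287 CPM in 18_2 and 44.6 and 61.5 CPM in 32_2. The sides of 10_3 thus held the lowest left value and the second highest right value of that group.

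*Apob*, the structural protein of lipoproteins rich in triglyceride, had left levels of 14.3 to 159 CPM and right levels of 3.4 to 89.7 CPM in the wild types, 2.61 to 127 and 1.88 to 136 CPM in the rightward mutants, and 6.38 to 91.1 and 13.3 to 216 CPM in the inverted mutants. *Apom*, a carrier of sphingosine-1-phosphate, had 13.3 to 99.1 and 5.25 to 78.1 CPM, 2.85 to 80.3 and 1.66 to 102 CPM, and 2.37 to 72.0 and 20.2 to 131 CPM in the same order. *Apoa4*, made by the gut in later life, had 1.23 to 11.6 and 0.336 to 15.9 CPM in the wild types, 0.435 to 11.8 and 0 to 16.8 CPM in the rightward mutants, and 0 to 11.6 and 1.28 to 16.3 CPM in the inverted mutants. For each of the 3 genes the left and right ranges overlapped in every group.

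*Cubn* and *Amn* encode the subunits of cubam, which takes up proteins and vitamin carriers at the apical surface. In the wild types the left level of *Cubn* was 6.04 to 73.5 CPM (median 38.9) and the right level 3.44 to 56.6 CPM (median 20.1). It had 1.08 to 62.0 CPM (median 29.7) and 0.612 to 65.0 CPM (median 17.4) in the rightward mutants, and 0.704 to 41.9 CPM (median 30.2) and 6.78 to 88.3 CPM (median 14.8) in the inverted mutants. *Amn* had 6.65 to 48.2 and 1.29 to 43.6 CPM, 1.38 to 43.3 and 1.73 to 49.7 CPM, and 0.946 to 31.5 and 6.83 to 61.8 CPM. Both genes were highest on the right of 18_2. *Cubn* was lowest on the right of 2_2 and *Amn* on the left of 10_3.

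The difference between sides was shared by the genes within an embryo. All 10 genes had the same side higher in 18 of 21 embryos, and 205 of the 210 values of log2 right over left (with a prior count of 2) had the sign that most genes of their embryo had. The exceptions were *Apob* and *Ttr* in 22_4, *Amn* and *Trf* in 2_2 and *Apoa4* in 17_1, with log2 values between 0.05 and 0.35. The summed level was higher on the left in 14 embryos and on the right in 7, and it differed by more than 2-fold between sides in 13 of 21.

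**Figure D2:**
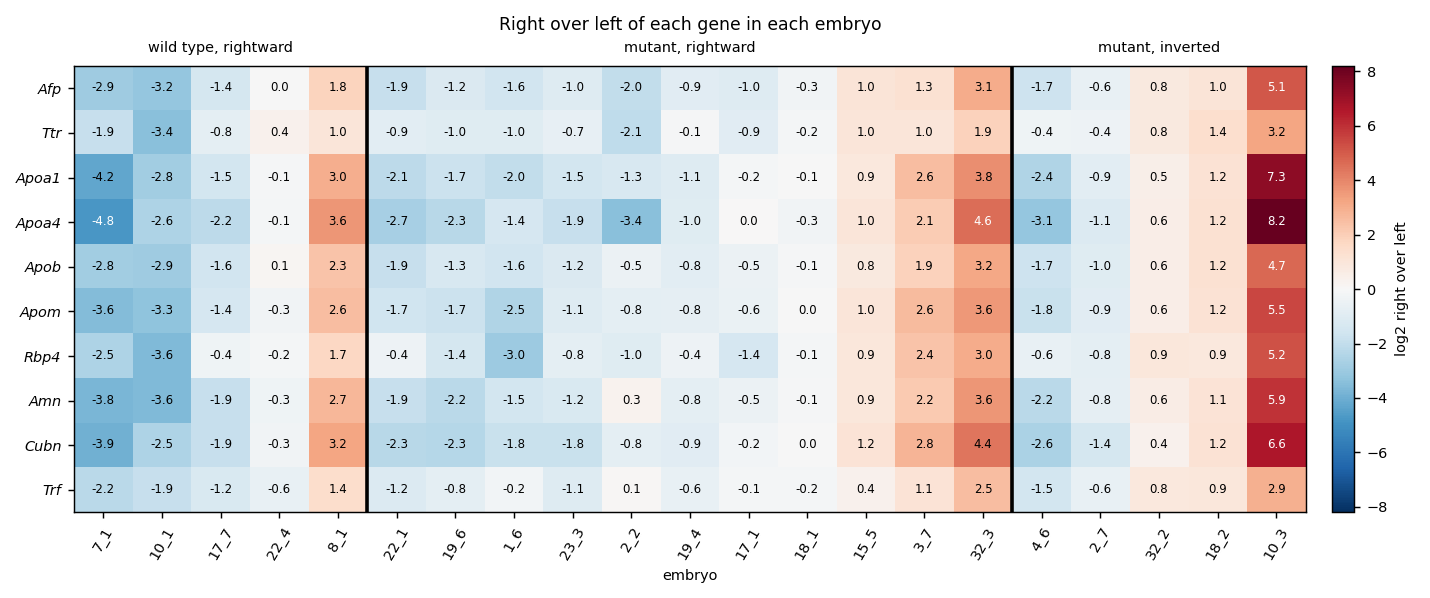
Log2 right over left of each of the 10 genes (rows) in each of 21 embryos (columns, ordered within each group by the median over the genes), with blue for more on the left, red for more on the right and the value printed in each cell. Columns are nearly of 1 colour, and both colours occur in every group.

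By group, the left side had the higher sum in 4 of 5 wild types, in 8 of 11 rightward mutants and in 2 of 5 inverted mutants. The ratio between sides in the wild types was 9.1-fold in 10_1 and 7.03-fold in 7_1 toward the left, 2.08-fold in 17_7 and 1.06-fold in 22_4 toward the left, and 3.86-fold in 8_1 toward the right. In the rightward mutants it was 1.09-fold at the lowest, 2.07-fold at the median and 7.99-fold at the highest, the last in 32_3, which with 3_7 and 15_5 had more on the right. Among the inverted mutants it was 24.1-fold in 10_3, 2.16-fold in 18_2 and 1.68-fold in 32_2 toward the right, and 2.33-fold in 4_6 and 1.68-fold in 2_7 toward the left. Each group held embryos of both directions.

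Per gene, the widest difference was that of *Apoa4* in 10_3, where a right level of 12.8 CPM stood against a left count of 0, which makes it at least 194-fold higher on the right when 3 counts are allowed. In 2_2, with 23 counts on the left and 0 on the right, the same gene was at least 6.64-fold lower on the right. On the log2 scale *Apoa1* had 7.31, *Cubn* 6.65 and *Trf* 2.89 in 10_3. Toward the left the widest values were -4.75 for *Apoa4*, -4.24 for *Apoa1* and -3.93 for *Cubn* in 7_1. In 32_3 *Apoa4* had 4.57, *Cubn* 4.39 and *Apoa1* 3.81, while *Trf* had 2.52 and *Ttr* 1.86. The order of the genes was another in 10_1, where *Amn* had -3.63, *Rbp4* -3.59 and *Ttr* -3.45, ahead of *Apoa1* at -2.85, *Apoa4* at -2.55 and *Cubn* at -2.52. *Rbp4* was the widest in 1_6, where it had -2.98 while *Trf* had -0.23, and the narrowest in 22_1, where it had -0.42 while *Apoa4* had -2.71.

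**Figure D3:**
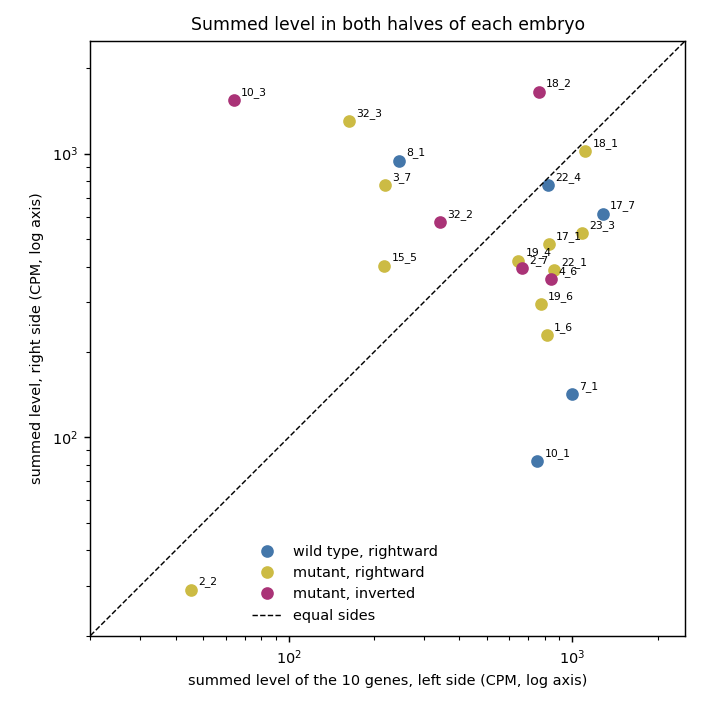
Summed level of the 10 genes in CPM in the left side (horizontal) and the right side (vertical) of each of 21 embryos, both on log axes, with a dashed line where the sides are equal. Embryo 10_3 lies at 64.0 and 1540 CPM, embryo 10_1 at 751 and 82.5 CPM, and embryo 2_2 at 45.1 and 29.0 CPM.

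A high level on one side did not go with a high level on the other. Over 21 embryos, Pearson's r between the log2 sums of both sides was 0.08 and Spearman's rho -0.12, and r was -0.33 without the 2 embryos farthest from the median on the left. For single genes r lay between -0.19 (*Trf*) and 0.49 (*Ttr*) and rho between -0.32 (*Ttr*) and 0.23 (*Apob*). The value for *Ttr* rested on such embryos, as its r was -0.35 without the 2 farthest. The median absolute log2 difference between the sides of an embryo was 0.9 for *Rbp4* and 2.09 for *Apoa4*. Between libraries of the same side and group from other embryos it was 1.21 and 1.88, which is of a similar size. These are descriptions with no test.

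The spread of right over left was wide against other genes. Its standard deviation over 21 embryos was 3.02 on the log2 scale for *Apoa4*, 2.62 for *Apoa1*, 2.61 for *Cubn*, 2.36 for *Amn*, 2.27 for *Apom*, 2.02 for *Rbp4*, 2.0 for *Afp*, 1.96 for *Apob*, 1.48 for *Ttr* and 1.35 for *Trf*. Over the 15246 genes with a mean of at least 1 CPM the median was 0.24, the 95th percentile 0.85 and the 99th percentile 1.56. *Apoa4* was among the 10 genes with the widest spread, and for *Trf*, the narrowest of those studied, 215 genes were at or above its value.

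The genes moved together over libraries as well. Over 42 libraries the 45 pairs had a median Pearson's r of log2 CPM of 0.931, from 0.784 for *Ttr* and *Trf* to 0.989 for *Apoa1* and *Apom*. For log2 right over left over 21 embryos the median was 0.956, from 0.843 for *Ttr* and *Trf* to 0.991 for *Apob* and *Apom*. Against the mean of the other 9, the slope of log2 CPM was 1.33 for *Apoa4*, 1.18 for *Apoa1* and *Cubn*, 0.82 for *Ttr* and 0.5 for *Trf*. The libraries share the embryo and the dissection, and the values are descriptions.

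Right was compared with left in each group by edgeR's quasi-likelihood test on the counts of all genes with the embryo as a block, with Benjamini-Hochberg adjustment of p over every gene tested. All 10 genes passed the filter on low counts in every comparison. In the wild types the fitted log2 right over left was negative for all 10, with a median of -1.24 and values from -1.51 ± 0.97 (SE) for *Amn* to -0.88 ± 0.61 for *Ttr*. None of the 10 was called, nor had an unadjusted p under 0.05, and DESeq2 called none. Of the 23182 genes tested, 0% were called by edgeR, 2.76% had an unadjusted p under 0.05 and 0.0863% were called by DESeq2. The lowest unadjusted p was 0.086 for *Trf* (edgeR, adjusted p = 1), with a log2 value of -0.96 ± 0.49 and more on the left in 4 of 5 embryos. Without embryo 7_1 the median was -0.58 and without 8_1 it was -1.99. Without 10_1 it was -0.71, and *Ttr* and *Rbp4* had -0.31 each.

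In the rightward mutants the fitted values were smaller. The median was -0.29, and single values ran from -0.47 ± 0.6 for *Apoa4* to -0.06 ± 0.27 for *Trf*. Again 0 of 10 genes were called by edgeR or DESeq2, and 0 of 10 had an unadjusted p under 0.05. Of the 22795 genes tested, 0.0263% were called by edgeR, 3.59% passed without adjustment and 0.14% were called by DESeq2. The median was -0.59 without embryo 32_3, -0.13 without embryo 1_6 and -0.28 without embryo 2_2.

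In the inverted mutants all 10 fitted values were positive. The median was 0.55, with values from 0.3 ± 1.12 for *Cubn* to 0.87 ± 0.49 for *Ttr*, and the lowest adjusted p was 0.468 (edgeR, *Ttr*). Here too 0 of 10 genes were called by edgeR or DESeq2, and 0 of 10 had an unadjusted p under 0.05, while over the 22960 genes tested 2.04% were called by edgeR, 15.1% passed without adjustment and 7.64% were called by DESeq2. The direction rested on embryo 10_3, since the median was -0.21 without it and 8 of the 10 genes turned negative. *Ttr* had 0.34 and *Rbp4* 0.09 without that embryo. Without 4_6 the median was 1.24.

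**Figure D4:**
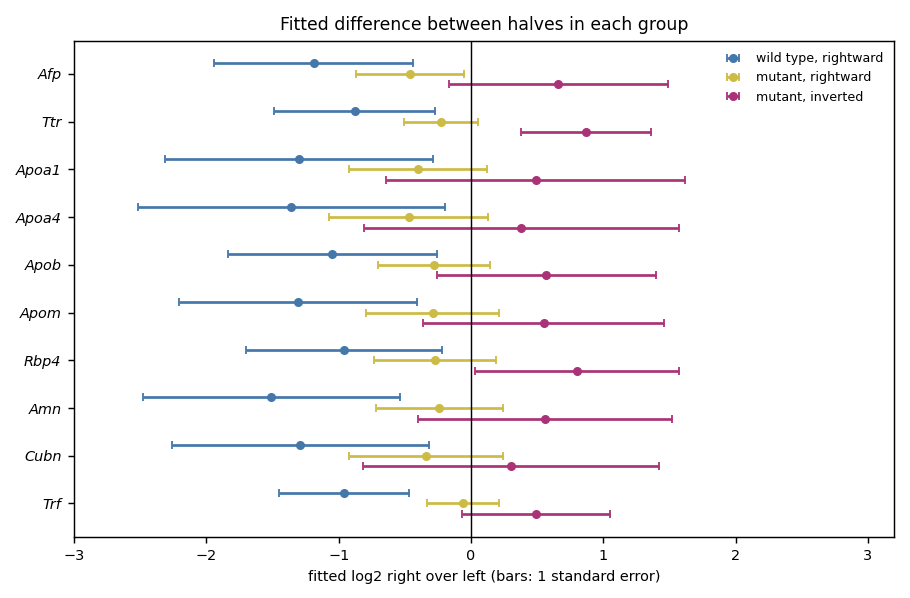
Fitted log2 right over left of each gene with 1 standard error, for 5 wild types (blue), 11 rightward mutants (yellow) and 5 inverted mutants (purple). Values lie left of 0 in both groups with rightward looping and right of 0 in the group with inverted looping, and none passed the test.

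The differences of asymmetry were tested themselves in 1 fit of all 42 libraries. Rightward mutants minus wild types gave a median of 0.85 (range 0.64 to 1.24, SE 0.65 to 1.48) on the log2 scale, and 0 of 10 genes were called by edgeR or DESeq2 or had an unadjusted p under 0.05, against 0%, 0% and 3.04% of 26335 genes. The median was 0.23 without embryo 7_1 and 1.61 without 8_1. Mutants with inverted minus those with rightward looping also gave a median of 0.85 (range 0.53 to 1.11, SE 0.66 to 1.45), and 0 of 10 genes were called or had an unadjusted p under 0.05. Over all genes, edgeR called 0.311% and DESeq2 1.73%, and 10.5% passed without adjustment. This median was 0.03 without embryo 10_3, 0.01 without embryos 2_2 and 10_3, and 1.51 without 4_6. Both comparisons share the rightward mutants.

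The levels on each side were compared between groups with sex as a covariate. On the left, rightward mutants against wild types gave a median log2 fold change of -0.38 (range -0.49 to -0.12, SE 0.41 to 0.84), which was -0.09 without embryos 2_2 and 10_3, -0.67 without the wild type 8_1 and -0.13 without the wild type 17_7. None of the 10 was called by edgeR or DESeq2 or had an unadjusted p under 0.05, against 0.0242%, 0.0805% and 5.02% of 24838 genes. Mutants with inverted against rightward looping gave -0.15 on the left (range -0.32 to 0.04), and none of the 10 passed, against 0.0121% by edgeR, 0.419% by DESeq2 and 7.89% without adjustment. This median was -0.37 without embryo 2_7 and turned to 0.09 without 10_3. *Apoa4* alone had a positive value there, 0.04 ± 0.78.

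On the right, rightward mutants against wild types gave a median of -0.06 (range -0.24 to 0.2), with 3 of 10 values above 0. None of the 10 was called by edgeR or DESeq2 or had an unadjusted p under 0.05, against 0.0121%, 0.0241% and 3.28% of 24859 genes. This median was 0.89 without the wild type 8_1 and -0.38 without the wild type 10_1. Mutants with inverted against rightward looping gave 0.68 on the right (range 0.6 to 0.94, SE 0.43 to 0.85), 0.31 without embryos 2_2 and 10_3 and 0.35 without 18_2. None of the 10 passed, against 0.00805% by edgeR, 0.0724% by DESeq2 and 4.26% without adjustment. The 4 comparisons of levels share the rightward mutants.

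Other genes had a pattern close to that of the 10. Over 42 libraries the genes most like their mean scaled log2 CPM, among 26325 others, were *Soat2* (r = 0.987), which esterifies cholesterol, the sulfate transporter *Slc13a4* (r = 0.982), the protease *Ctsh* (r = 0.978), *Lgals2* (r = 0.969), *Tdh* (r = 0.964), the amino acid transporter *Slc7a9* (r = 0.962), *Ifi27l2b* and *B4galnt2* (r = 0.955 each), *Ly6g2* (r = 0.953) and *Fga* (r = 0.951), which encodes a chain of fibrinogen. In all, 44 genes reached 0.9. By log2 right over left over 21 embryos the first were *Soat2* (r = 0.991), *Ctsh* (r = 0.988), *Slc13a4* (r = 0.986), *Lgals2* (r = 0.981), the zinc transporter *Slc39a5* (r = 0.975), *Slc7a8* (r = 0.972), the calcium-binding *S100g* (r = 0.971), *Tdh* (r = 0.97), *Slc7a9* (r = 0.968) and the homeobox gene *Rhox5* (r = 0.967), and 81 genes reached 0.9. The lists share 6 genes.

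Lists of visceral endoderm genes by role were read in the same fits. The 19 other secreted or surface genes, of which *Dpp4* was the most abundant (median 38.8 CPM), had a sum of 44.7 to 444 CPM, and it went the way of the 10 genes in 21 of 21 embryos (Pearson's r of log2 right over left 0.98, rho 0.9, and r 0.95 without the 2 farthest embryos). The 8 genes of lipoprotein assembly, led by *Apoe* (median 313 CPM), went the same way in 19 embryos (r 0.96, rho 0.94, without the 2 farthest 0.94). The 6 genes of uptake and lysosome, led by *Dab2* (median 347 CPM), did so in 20 embryos (r 0.95, rho 0.94, without the 2 farthest 0.93), although their sum ranged only from 402 to 1060 CPM. The 9 transcription factors, led by *Gata4* (median 121 CPM), followed less closely, in 12 of 21 embryos (r 0.58, rho 0.54, without the 2 farthest 0.44), and within the list r was 0.92 for *Hnf4a* and 0.2 for *Gata6*. No gene of these 4 lists was called by edgeR for right against left in any group. In the inverted mutants, 1 of 9 transcription factors, *Gata6* (0.32), was called higher on the right by DESeq2, against 7.64% of all genes. The unadjusted p was under 0.05 there for 3 of 9 transcription factors and 1 of 6 genes of lipoprotein assembly tested, against 15.1%, and in the wild types for 1 of 6 uptake genes, *Lrp2* (-0.39 ± 0.11), against 2.76%.

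Several genes that the later liver makes in quantity were at or near 0. *Alb* had a median of 0.0454 CPM and was at 0 in 10 of 42 libraries, *Ahsg* and *Fetub* were at 0 in 14 libraries each, *Apoh* in 8 and *Apoc2* in 28. The mucin gene *Muc13* was at 0 in 3 libraries. *Fga* (median 2.15 CPM) and *Ambp* (median 1.75 CPM) were at 0 only in the right side of 2_2. Other secreted products in the same lists were detected in every library. Their medians were 19.1 CPM for *Fgb*, 13.5 CPM for *Vtn*, 6.48 CPM for *Fgg* and 5.3 CPM for *Apoa2*. Their r of log2 right over left with the 10 genes was 0.91, 0.48, 0.94 and 0.96 in that order. The sum of the 6 hepatic endoderm genes (median 180 CPM) was largely that of *Tbx3* (median 122 CPM, r 0.21 with the 10 genes). For single genes of this list r ran from -0.09 (*Onecut2*) to 0.45 (*Onecut1*). Their sum went the way of the 10 genes in 11 of 21 embryos (r 0.28, rho 0.32, without the 2 farthest 0.21). The 12 foregut genes, led by *Krt18* (median 553 CPM), did so in 12 embryos (r 0.52, rho 0.42, without the 2 farthest 0.42), and *Nkx2-1* among them was at 0 in 5 libraries.

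Markers of other tissues at the edge of the dissection were read beside these values. The 6 genes of extraembryonic mesoderm and amnion were led by *Igf2* (median 88.7 CPM) and include *Postn*, a laterality signature gene of the study's heart field samples. They summed to 134 to 633 CPM and went with the 10 genes in 15 of 21 embryos (r 0.63, rho 0.62, without the 2 farthest 0.5). The 10 genes of primitive blood, led by *Hbb-bh1* (median 414 CPM), summed to 325 to 2160 CPM and did so in 13 embryos (r 0.48, rho 0.46, without the 2 farthest 0.38). For 6 endothelial genes, led by *Kdr* (median 129 CPM), the number was 11 (r 0.27, rho 0.24, without the 2 farthest 0.31). The heart tube muscle list, led by *Myh6* (median 721 CPM), had r 0.18 and rho 0.08 (without the 2 farthest 0.14), and the heart field list, led by *Wnt2*, -0.01 and -0.05 (0.1). The neural tube list, led by *Pax6* (median 11.7 CPM), had r -0.1 and rho -0.02 (without the 2 farthest -0.18), with *Olig2* at 0 in 12 libraries and *Sox1* and *Neurog2* in 6 each, and the somite list, led by *Meox1* (median 98 CPM), -0.08 and -0.12 (0.11). The part of any tissue at the edge in the differences between sides was not tested.

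**Figure D5:**
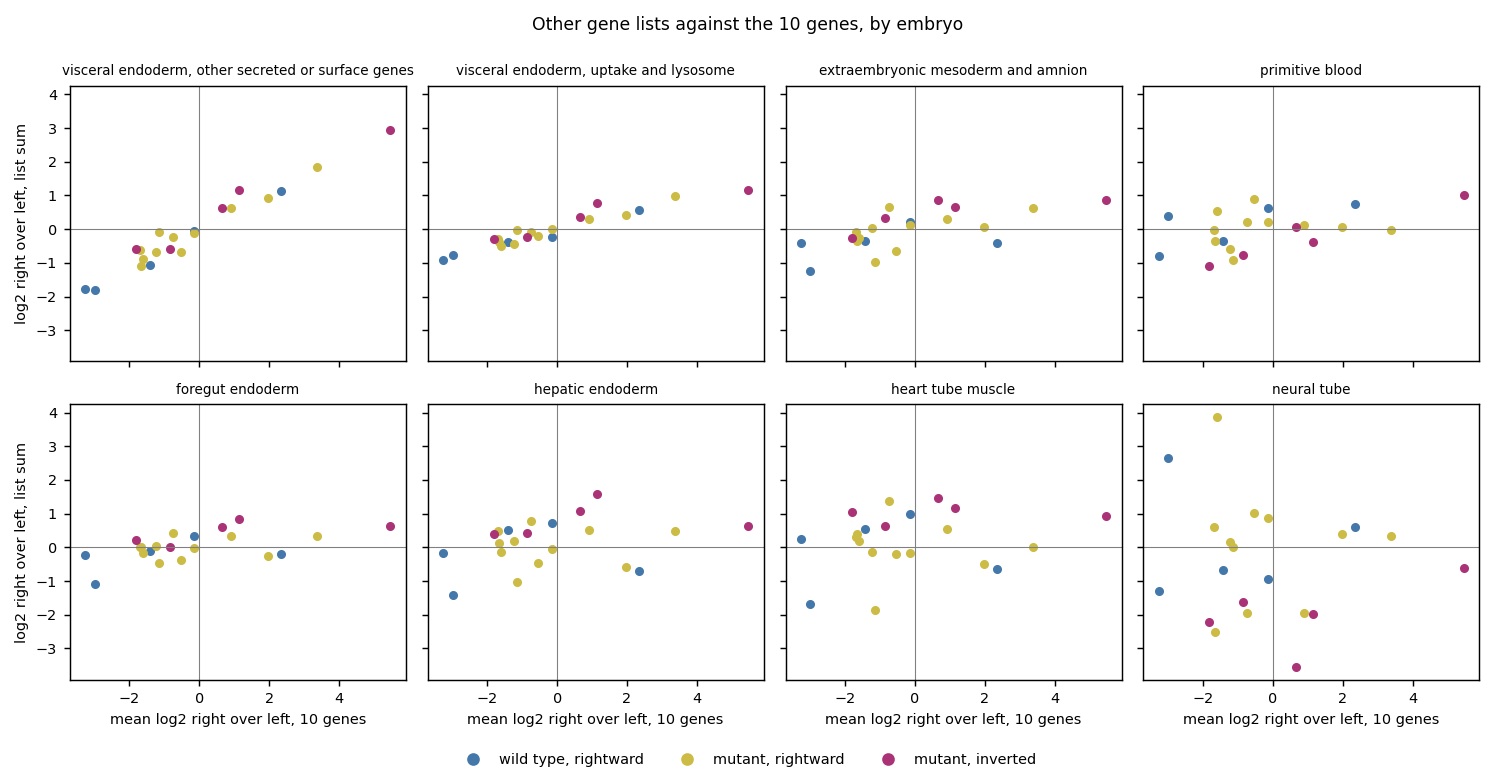
Log2 right over left of the summed CPM of 8 other gene lists (vertical) against the mean log2 right over left of the 10 genes (horizontal), 1 point per embryo, with colours for the groups. The 2 lists of visceral endoderm genes drawn, other secreted or surface genes and uptake, lie along a rising line (r of 0.98 and 0.95), while the heart tube muscle list (r 0.18) and the neural tube list (r -0.1) do not.

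In the inverted mutants, where the 10 genes were not called, edgeR called 7 of 9 heart tube muscle genes higher on the right (*Myl7*, *Myl2*, *Myl3*, *Tnnt2*, *Tnni1*, *Actc1* and *Myh6*), with *Actc1* at 1.12 ± 0.08 on the log2 scale (adjusted p = 0.00257), where 2.04% of all genes were called. It also called 3 of 10 heart field genes (*Tbx5*, *Wnt2* and *Osr1*), 2 of 5 hepatic endoderm genes tested (*Hhex* and *Onecut1*) and *Bmp4* higher on the right, and *Pax6* and *Olig2* of 5 neural tube genes and *Myf5* of 6 somite genes higher on the left. *Pax6* had -2.02 ± 0.36 (adjusted p = 0.0309). The median standard error was 0.17 over all genes in that fit and 0.49 to 1.19 for the genes studied. In the wild types and in the rightward mutants no gene of any of the lists was called by edgeR. DESeq2 called 3 genes in the wild types, against 0.0863% of all genes, and none in the rightward mutants. These were *Nkx2-1* of the foregut list with 3.05 and *Tcf15* of the somite list with 1.3 on the log2 scale, both higher on the right. The remaining gene was *Postn* of the list of extraembryonic mesoderm and amnion with -1.24, higher on the left. The study names *Postn* among its laterality signature genes of the heart field, left sided in situs solitus. Among the inverted mutants DESeq2 also called *Myh7*, *Prox1*, *Tbx3*, *Epcam*, *Krt8*, *Krt18*, *Cdh5*, *Tek* and *Fgf8* higher on the right and *Sox2*, *Hoxb1*, *Aldh1a2*, *Sox1*, *Sox3*, *Neurog2* and *Tcf15* higher on the left, against 7.64% of all genes.

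The 10 endocytic partners and lipoprotein receptors, led by the transferrin receptor *Tfrc* (median 144 CPM), summed to 506 to 666 CPM over the 42 libraries and went the way of the 10 genes in 12 of 21 embryos (r 0.18, rho 0.22, without the 2 farthest 0.41). The standard deviation of log2 right over left was 0.1 for their sum, in which members of both directions offset each other, and 0.16 (*Lrp1*) to 0.57 (*Lrp8*) for single genes, against a median of 0.24 over all genes. *Stra6*, the receptor for RBP4, had a median of 78.1 CPM (range 46.4 to 117) and an r of -0.24 with the 10 genes. *Lrp2*, which takes up proteins together with cubilin and is also expressed in the visceral endoderm, had 18.1 to 57.1 CPM and an r of 0.69. For right against left, edgeR called 0 of 10 of these genes in each group, with an unadjusted p under 0.05 for 3 in the wild types, 0 in the rightward mutants and 6 in the inverted mutants, against 2.76%, 3.59% and 15.1% of all genes. DESeq2 called 0, 0 and 6 of them (*Lrp1*, *Scarb1* and *Abca1* higher on the right, *Lrp8*, *Tfrc* and *Stra6* higher on the left), against 0.0863%, 0.14% and 7.64%.

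The embryos with the widest differences show how far the tissues parted. In 10_3 the log2 right over left was 2.93 for the other secreted or surface genes, 1.16 for the uptake list, 0.88 for extraembryonic mesoderm and amnion, 1.0 for primitive blood and 0.92 for heart tube muscle. In 32_3 it was 1.83, 0.97, 0.62, -0.01 and 0 in that order. In the wild type 7_1 it was -1.79, -0.91, -0.42, -0.8 and 0.24, and in the wild type 10_1 -1.81, -0.77, -1.23, 0.38 and -1.68. In 8_1, the wild type with more of the 10 genes on the right, it was 1.13, 0.57, -0.41, 0.75 and -0.64. The neural tube list had 2.64 in 10_1 and -0.61 in 10_3. In 2_2, where the 10 genes were low on both sides, the other secreted or surface genes summed to 46.9 CPM (left) and 44.7 CPM (right), while *Apoe* and the other assembly genes still summed to 264 and 281 CPM and primitive blood to 870 and 458 CPM.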

How the data were processed

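RNA of the left and right heart fields of 21 embryos was sequenced from low-input poly-A libraries amplified by PCR, and all 42 libraries were used. The authors aligned the reads to GRCm39 with STAR, removed duplicates and counted reads on Ensembl genes with featureCounts (Subread 2.0.6), and they deposited raw counts for 56953 genes without normalization. The strand setting is not given in the sources used here. Names, positions and exon lengths came from GENCODE annotation of GRCm39, which matched 56310 identifiers. Library totals were 36073684 to 62970327 (median 43458644).

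Groups are genotype and looping direction, as in the labels (rightward and inverted mutants). The study's laterality clusters are in no label and were not used. The 10 genes and the other lists were chosen with earlier results of these data known. The text names all 10 genes, the 10 most alike by each measure, and from each list the genes that passed edgeR or DESeq2 for right against left, the most abundant one and markers at 0. Genes that illustrate a range within a list (*Hnf4a*, *Gata6*, *Stra6*, *Lrp2*, *Isl1*, *Tbx5*, *Fgb*, *Vtn*, *Fgg*, *Apoa2*, *Onecut2*) were chosen after their values were seen.

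Counts were scaled by TMM and tested by edgeR 4.0.16 (R 4.3.3), with filterByExpr, whose settings were a min.count of 5, a min.total.count of 10, a large.n of 50 and a min.prop of 0.2, and a threshold of 0.05 on the adjusted p. Standard errors were taken as the log2 fold change over the root of F. Left and right come from the same embryo, which was the block. The correlation of the deviations of both sides from their group means had a median of 0.34 (range -0.16 to 0.75) and was over 0.1 in 18 of 21 embryos. Over 861 pairs of libraries, a chi-square test of the counts gave a statistic per gene of at least 6.22, so that none was a copy. The tests were tested on simulated data first. DESeq2 1.42.0 with a local fit, other scaling and filters, no block or sex covariate, and each embryo left out were alternatives. Levels are CPM on the effective library size, and log2 right over left used a prior count of 2. Embryos are separate animals, and p-values measure the spread between them. The study took littermate wild types as controls where it could, but no label gives the litter and no fit included it. A count of 0 allows up to 3 counts.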

Additional observations from a re-analysis of the deposited data

Results flagged for a closer look

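In the groups of 5, the highest or lowest sample was set against the others by Dixon's ratio for log2 right over left and for the log2 CPM of each side, which made 60 comparisons and about 1 in 20 passes by chance. Of these, 3 passed, all of them *Rbp4*. In the wild types the left side of embryo 8_1 was low, with a log2 CPM of 6.09. In the inverted mutants the left side of embryo 10_3 was low, with a log2 CPM of 3.59, and its log2 right over left of 5.19 lay far above the other embryos. No gene had every embryo of a group on one side and every embryo of another group on the other.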

How the results depend on the processing

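The number of the 10 genes called was 0 in all 9 comparisons under every alternative run, including 84 fits that left out an embryo each. With no replicate block, where the pairing of the sides is dropped, it was also 0, and the median log2 right over left was -0.69, -0.2 and 0.69 in the wild types, the rightward mutants and the inverted mutants. Leaving out embryos 2_2 and 10_3 together was chosen after seeing the data. The count of values with more on the left, 135 of 210, was 135 with a prior count of 0.5 and 134 with plain library size. Without division by length, 4 of 10 genes kept their place in the order of levels. In the fits of right against left, leaving out an embryo turned the sign of 9 single values, 8 of them without 10_3. It also brought *Rbp4* in the rightward mutants to 0. Turned signs of single genes in the other comparisons were not counted, though some of their medians turned, as given above. In the inverted mutants the fitted log2 right over left ranged from -0.1 to 1.31 for *Afp*, -0.37 to 1.3 for *Apoa1*, -0.53 to 1.26 for *Apoa4*, -0.18 to 1.19 for *Apob*, -0.24 to 1.23 for *Apom*, -0.27 to 1.3 for *Amn*, -0.6 to 1.11 for *Cubn* and -0.07 to 0.99 for *Trf*. In the rightward mutants it ranged from -0.55 to 0 for *Rbp4* and -0.28 to 0.06 for *Trf*. Over all genes the number called moved more. For right against left it was 0, 6 and 468 in the wild types, the rightward mutants and the inverted mutants, 20, 32 and 1755 by DESeq2, 2, 7 and 942 with no filter and 0, 1 and 305 with no block. With an embryo left out it was 0 throughout in the wild types, 2 to 8 in the rightward mutants and 138 to 446 in the inverted mutants. For the difference of asymmetry between inverted and rightward looping it was 82, and 456 by DESeq2, 131 with no filter, 17 with no block and 18 to 192 with an embryo left out. The cause was not tested. *Apoa4* fell out of 8 of the 9 comparisons when at least 10 counts were asked in every library, since the filter removes genes with a 0.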
